A study of Mus musculus with 10 samples.

Results

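The immunoglobulin and T cell receptor segments of the mouse genome were described here in RNA of leukaemia cells sorted from spleen. Members were the rows of the deposited gene table whose biotype was an immunoglobulin or T cell receptor constant, variable, diversity or joining gene (IG_ or TR_, then C, V, D or J, then _gene), with pseudogenes left out. This gave 173 of 38215 listed genes, made up of 12 rows of type IG_C, 4 of IG_V, 25 of IG_D, 88 of IG_J and 44 of TR_V. The table's annotation files the T cell receptor constant genes and Ptcra under IG_C, and it gives most variable segments another type (IG_LV, 304 rows), which lies outside these members. The leukaemia was an acute myeloid leukaemia (AML) made by transducing lineage-depleted mouse bone marrow with AML1-ETO and Nras G12D in the retrovirus MSCV-IRES-GFP. GFP+ cells were grown first in Rag2-/-γc-/- mice, and GFP+ spleen cells from those primary leukaemias were transplanted again. The libraries hold GFP+ splenocytes of 5 secondary C57BL/6J recipients, which are immunocompetent (mice 1, 3, 4, 5 and 6), and of 5 secondary Rag2-/-γc-/- recipients (mice 7 to 11). Both groups therefore share the oncogenes, the GFP sort and a first passage in Rag2-/-γc-/- mice. Rag2-/-γc-/- mice cannot rearrange antigen receptor genes and lack B, T and NK cells, while their myeloid cells remain. The age and sex of the mice and the number of primary leukaemias behind the recipients are not given, and the p-values accordingly cover the spread between these recipients alone.

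An antigen receptor gene becomes a complete reading frame only when the RAG1 and RAG2 recombinase joins one variable (V) segment, in some chains one diversity (D) segment, and one joining (J) segment, which are then spliced to a constant (C) gene. B cells join a heavy chain (the IGH locus) with a kappa or a lambda light chain (IGK, IGL). They first use the mu constant gene Ighm and can later switch to gamma, epsilon or alpha constant genes. T cells carry alpha and beta chains (TRA, TRB) or gamma and delta chains (TRG, TRD). Transcripts of constant genes that have not been rearranged, called germline or sterile transcripts, are known from cells that make no antibody.

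The D and J rows are shown first, because 113 of the 173 members are of these kinds and 111 of those 113 had no count in any library. Sequences are those of GENCODE M21 on GRCm38. The 4 heavy chain J segments and the first kappa J segment are given below 5′ to 3′ on the coding strand, with capitals over the codons for Trp-Gly-X-Gly or Phe-Gly-X-Gly, a conserved motif near the end of a variable domain. They lie on chromosome 12, minus strand (Ighj1 at chr12:113429781-113429833, Ighj2 at chr12:113429468-113429515, Ighj3 at chr12:113429085-113429132, Ighj4 at chr12:113428514-113428567), and on chromosome 6, plus strand (Igkj1 at chr6:70722562-70722599). D segments follow, with no capitals: Ighd1-1 of the heavy chain (chr12:113482170-113482192, minus strand), and Trbd1 and Trbd2 of the beta chain (chr6:41533201-41533212 and chr6:41542163-41542176, plus strand).
Ighj1: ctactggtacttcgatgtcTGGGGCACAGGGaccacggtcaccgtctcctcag
Ighj2: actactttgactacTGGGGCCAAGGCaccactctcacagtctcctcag
Ighj3: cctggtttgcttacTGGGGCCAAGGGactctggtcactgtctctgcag
Ighj4: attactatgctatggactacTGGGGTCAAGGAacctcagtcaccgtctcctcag
Igkj1: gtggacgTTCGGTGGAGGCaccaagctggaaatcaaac
Ighd1-1: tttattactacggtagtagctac
Trbd1: gggacagggggc
Trbd2: gggactgggggggc

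The pattern TGGGGNNNNGGN, for the Trp form of the motif, was found in all 4 heavy chain J segments. It was found in 7 of the 74 segments that M21 lists as J genes (9.46%). The pattern TTNGGNNNNGGN, for the Phe form, was found in 4 of 5 kappa J segments and in 60 of the 74 (81.1%). Its first codon, TTN, fits Leu as well as Phe, and neither search was tied to the reading frame. The counts are therefore of base patterns and not of amino acids. Both patterns, which can overlap, matched in 2 segments, and neither was found on the opposite strand of any. All 25 D segments were shorter than the 75-base reads, at 9 to 29 bases, as were 84 of the 85 J rows with a length in M21. The J row above that length, of 985 bases, is not a joining segment but the gamma chain constant gene Tcrg-C4, which the table files under IG_J. A full-length read of a rearranged transcript cannot lie wholly within such a segment, and nothing further is drawn from D and J rows at 0.

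Libraries held 32703932 to 44097690 expected counts (C57BL/6J) and 28157745 to 62461126 (Rag2-/-γc-/-). A floor of 3 counts corresponded to 0.0653 to 0.0916 CPM (counts scaled to library size by TMM) in C57BL/6J libraries and 0.0509 to 0.109 CPM in Rag2-/-γc-/- libraries. The genes deleted in the immunodeficient hosts were read in all libraries. Rag2 had 2.19, 1.98, 2.28, 1.52 and 2.40 CPM in the C57BL/6J libraries, against 5.88, 6.58, 5.67, 2.51 and 1.99 CPM in the Rag2-/-γc-/- libraries (edgeR adjusted p = 0.0576). Il2rg, the gene of the common gamma chain, had 9.68 to 17.7 CPM in C57BL/6J libraries, against 10.5 to 12 CPM in Rag2-/-γc-/- libraries (edgeR adjusted p = 0.302). The labels give these deletions for the hosts and not for the transduced marrow, so the levels do not check the labels. Ptprc, the pan-leukocyte gene CD45, had 472 to 743 CPM in C57BL/6J and 410 to 620 CPM in Rag2-/-γc-/- libraries. Itgam, a myeloid integrin gene, had 398 to 789 CPM in C57BL/6J and 652 to 1161 CPM in Rag2-/-γc-/- libraries. Of the 9 markers of AML cells and their origin, all tested, Kit and Flt3 rose and Cd34 and Csf1r fell by the edgeR test. Among all tested genes 3.32% were called higher and 4.47% lower. In all 10 libraries 6 of the 9 were over 10 CPM. Kit was not, at 3.21 to 7.52 CPM in C57BL/6J and 0.163 to 0.434 CPM in Rag2-/-γc-/- libraries. Mpo was at 0 to 0.304 CPM in C57BL/6J and 0.131 to 0.803 CPM in Rag2-/-γc-/- libraries. Rag2-/-γc-/- libraries 10 and 11 stood apart from libraries 7, 8 and 9. Chi-square over its degrees of freedom was 74.6 to 188 for pairs of libraries across this divide. It was 28.6 between libraries 10 and 11, and 8.13 to 38.7 among libraries 7, 8 and 9. By edgeR, 2786 genes were called higher without the first pair and 148 without the other 3, against 464 with all libraries. These fits hold different numbers of libraries, which by itself changes the number of calls.

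Of the 173 members, 45 had a count in at least 1 library, 44 of them in C57BL/6J libraries and 7 in Rag2-/-γc-/- libraries, and 38 were at 0 in every Rag2-/-γc-/- library, as were 6.7% of all genes with a count. The number of members with a count was 38, 19, 12, 12 and 22 in C57BL/6J libraries 1, 3, 4, 5 and 6, against 2, 2, 3, 3 and 4 in Rag2-/-γc-/- libraries 7 to 11. Every C57BL/6J library thus showed more segments than any Rag2-/-γc-/- library. All 6 immunoglobulin constant members (Ighm, Igha, Ighg1, Ighg2b, Ighg3 and Igkc) were present in each C57BL/6J library, whereas Rag2-/-γc-/- libraries showed 2 or 3 of them. Of the 45, 6 were higher in C57BL/6J without overlap between the groups (Igkc, Igha, Ighg1, Ighg3, Trac and Trbc2), beside 2.98% of all genes with a count, and 0 were lower without overlap, beside 2.99%. Of these 6, 4 (Igkc, Ighg1, Trac and Trbc2) had counts in all C57BL/6J libraries and none in any Rag2-/-γc-/- library, as did 0.227% of genes with a count. The filter on low counts left 4 members to test, Ighm, Igkc, Igha and Ighg2b, and 169 were not tested. Of the 4, 3 were called higher in C57BL/6J and 0 lower (edgeR quasi-likelihood test, adjusted p under 0.05), beside 3.32% and 4.47% of all tested genes. Igkc, Igha and Ighg2b passed the filter only through the group where they were high, so that count is a description and no support. With no filter beyond 1 count in total, 9 of the 45 members with a count were called higher, beside 2.42% of all genes; the added ones were Ighg1, Ighg3, Trac, Trbc1, Trbc2 and Igkv11-106 (edgeR adjusted p 0.00739 to 0.0472). With a filter of 1 CPM in 5 libraries 1 of 2 tested members was called higher (Igkc), beside 3.22%. Without Rag2-/-γc-/- libraries 10 and 11 it was 9 of 10, beside 19.3%, and without libraries 7, 8 and 9 it was 0 of 10, beside 1.01%. A call lost with fewer libraries is not by itself a smaller difference. Members other than Ighm entered these tests mainly through their C57BL/6J levels, so these counts too are descriptions and no support.

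**Figure D1:**
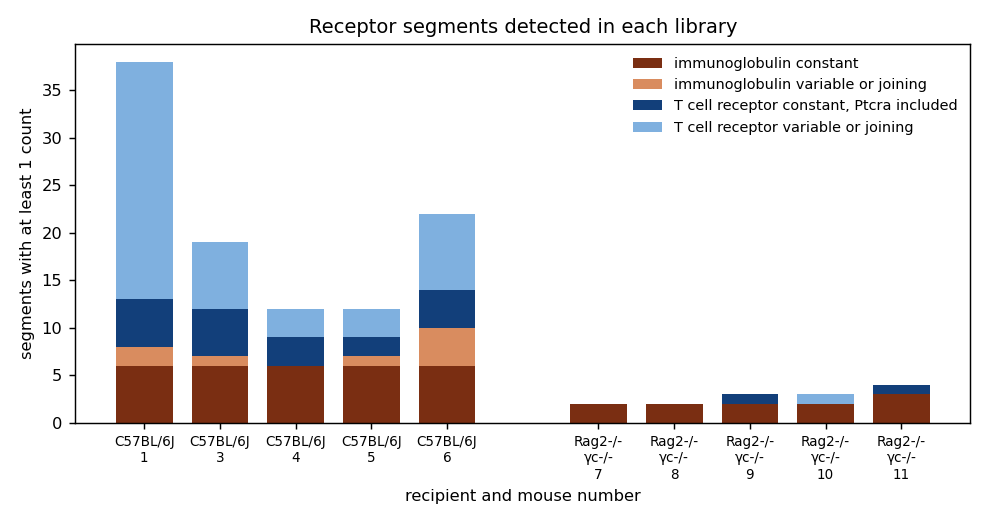
Number of the 173 receptor segments with at least 1 count (vertical axis) in each library, C57BL/6J recipients on the left and Rag2-/-γc-/- recipients on the right; colours divide the bar by kind of segment. C57BL/6J libraries reach 12 to 38 segments, and Rag2-/-γc-/- libraries 2 to 4.

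Among the heavy chain constant members, levels of Ighm overlapped between the groups, and the switched genes Igha, Ighg1, Ighg2b and Ighg3 were read mostly in C57BL/6J libraries. The switched gene Ighg2c, which the table files as protein-coding and which is therefore no member, was read in every library, at 1.29 to 12.4 CPM in C57BL/6J and 0.203 to 2.07 CPM in Rag2-/-γc-/- libraries, with overlap. Ighm (chromosome 12, 113418950 to 113422730, minus strand, GRCm38) encodes the mu constant region of IgM. Its level was 167, 86.4, 85.0, 82.2 and 116 CPM in C57BL/6J libraries 1, 3, 4, 5 and 6, against 57.8, 87.3, 105, 159 and 92.5 CPM in Rag2-/-γc-/- libraries 7 to 11. The groups overlapped, and the 2 highest values came from C57BL/6J library 1 and Rag2-/-γc-/- library 10. Means were 107 ± 36.2 CPM in C57BL/6J and 100 ± 36.9 CPM in Rag2-/-γc-/- recipients (SD, n = 5 each). The log2 fold change was 0.10 ± 0.27 (SE, edgeR adjusted p = 0.833), with a 95% interval of -0.42 to 0.62. Differences within that interval were not excluded. The sign of the fold change depended on the libraries. The log2 fold change was -0.12 without C57BL/6J library 1, -0.05 without Rag2-/-γc-/- library 7 and -0.22 without Rag2-/-γc-/- libraries 7, 8 and 9. Ighm held 5481, 3501, 3348, 3780 and 4603 counts in the C57BL/6J libraries and 3410, 3690, 2905, 4855 and 3658 in the Rag2-/-γc-/- libraries. All other members together held 1321.08, 1157.34, 167, 126.14 and 860.2 counts in C57BL/6J libraries, against 1, 2, 3.11, 6 and 13 in Rag2-/-γc-/- libraries.

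Igha (chromosome 12, 113258768 to 113260236, minus strand; listed in the table under a clone name) encodes the alpha constant region of IgA, the antibody class of mucosal surfaces. It had 0.702, 7.08, 1.14, 0.522 and 5.03 CPM in C57BL/6J libraries, while the Rag2-/-γc-/- libraries were at 0 except library 8 at 0.0473 CPM. The groups did not overlap, and C57BL/6J libraries 3 and 6 lay well above the other 3. Summed counts of 579 in C57BL/6J and 2 in Rag2-/-γc-/- recipients gave a ratio of 290 after scaling, with an exact 95% interval of 80.0 to 2404 that covers counting error only (edgeR adjusted p = 0.00248). The call was lost without Rag2-/-γc-/- libraries 7, 8 and 9 (adjusted p = 0.113), which leaves 5 libraries against 2.

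Ighg2b (chromosome 12, 113306389 to 113307933, minus strand) encodes the constant region of the IgG2b subclass. Its level was 0.764, 4.68, 0.254, 0.308 and 1.63 CPM in C57BL/6J libraries, against 0.0170, 0, 0.0402, 0.0653 and 0.278 CPM in Rag2-/-γc-/- libraries. Rag2-/-γc-/- library 11 lay above C57BL/6J library 4, so the groups overlapped. The log2 fold change was 4.25 ± 1.04 (SE; edgeR adjusted p = 0.0300), or 19.0-fold. The call was lost without any one of C57BL/6J libraries 3 and 6 and Rag2-/-γc-/- libraries 7, 8 and 9 (adjusted p 0.0620 to 0.0805), and the log2 fold change was 3.19 when C57BL/6J library 3 was left out and 5.73 when Rag2-/-γc-/- library 11 was. Ighg2b and Ighg2c, the other IgG2 gene of C57BL/6 mice, share 87.8% of 1211 aligned coding bases with an identical run of up to 78 bases, which is longer than a read. The division of their reads by the authors' counting is therefore uncertain.

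Ighg1 (chromosome 12, 113328976 to 113330523) had 1.31, 0.864, 0.0254, 0.0435 and 1.03 CPM in C57BL/6J libraries and no count in any Rag2-/-γc-/- library. It was at least 40.8-fold higher in C57BL/6J, taking 3 counts over the whole Rag2-/-γc-/- group as the floor. Ighg3 (chromosome 12, 113359665 to 113361232) had 0.153, 0.370, 0.254, 0.0435 and 1.79 CPM in C57BL/6J libraries, against 0.0253 CPM (1 count) in Rag2-/-γc-/- library 11 and 0 in the other 4. Its summed counts gave a ratio of 103, with an exact 95% interval of 18.1 to 4120. Both encode gamma constant regions, of IgG1 and IgG3, and in both C57BL/6J library 5 was at or near the lowest value.

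**Figure D2:**
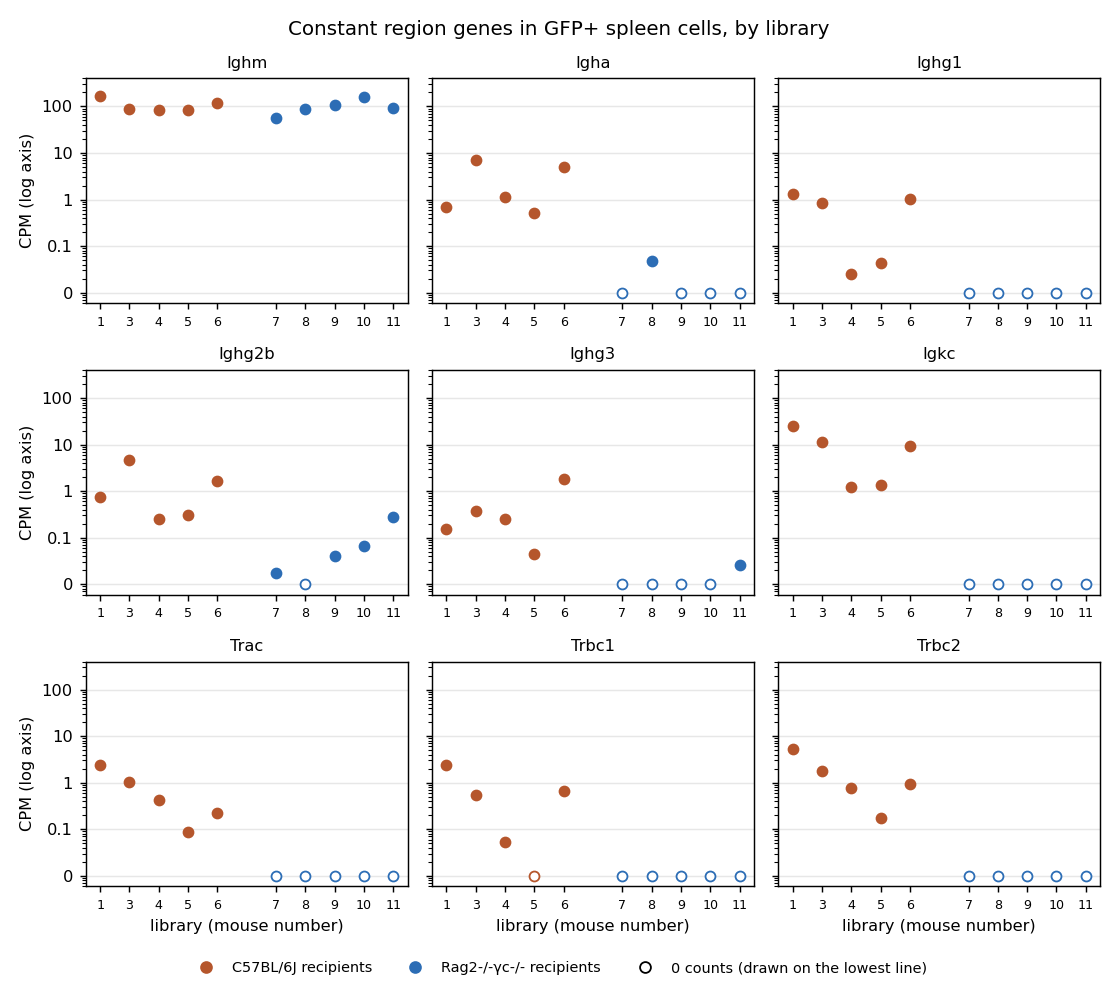
CPM (log axis) of the 9 constant genes among the members with at least 100 counts, 1 point per library. C57BL/6J recipients are on the left and Rag2-/-γc-/- recipients on the right of each panel. Open circles on the lowest line are libraries with no count. Constant genes that are no members, such as Ighg2c, are not drawn. Ighm lies between 57.8 and 167 CPM in all 10 libraries, while Igkc, Ighg1, Trac, Trbc1 and Trbc2 have no count in any Rag2-/-γc-/- library.

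The 4 switched members, without Ighg2c, summed to 2.93, 13, 1.67, 0.917 and 9.48 CPM in C57BL/6J libraries and to 0.0170, 0.0473, 0.0402, 0.0653 and 0.304 CPM in Rag2-/-γc-/- libraries, without overlap. As a share of counts of these genes plus Ighm, they took 1.72% (exact 95% interval 1.40 to 2.10) in C57BL/6J library 1 and 13.1% (12.1 to 14.2) in library 3. The share was 1.93% (1.5 to 2.45) in library 4, 1.10% (0.793 to 1.48) in library 5 and 7.57% (6.85 to 8.34) in library 6. In Rag2-/-γc-/- libraries it was 0.0293, 0.0542, 0.0344, 0.0412 and 0.327%, from 1, 2, 1, 2 and 12 counts. The 5 C57BL/6J shares all exceeded the 5 Rag2-/-γc-/- shares, and they ranged from 1.10 to 13.1% among themselves, with intervals that did not meet between libraries 3, 6 and the other 3. With Ighg2c counted as well, the switched share was 3.28, 22.7, 3.38, 3.69 and 12.1% in C57BL/6J libraries 1, 3, 4, 5 and 6, against 0.38, 0.753, 0.853, 0.939 and 2.51% in Rag2-/-γc-/- libraries 7 to 11. The groups still did not overlap, but Rag2-/-γc-/- library 11 came close to the lowest C57BL/6J libraries, with an interval of 2.03 to 3.06% against 2.83 to 3.78% in C57BL/6J library 1. Igha took 24.0% (15.8 to 33.7) of the counts of the 4 switched members in library 1 and 53.1 to 68.2% in libraries 3 to 6. With Ighg2c added it took 12.4% in library 1 and 27.8, 38.5, 16.6 and 31.5% in libraries 3, 4, 5 and 6. Of the counts of Igha plus Igkc, Igha took 2.75% in library 1 and 38.8, 48.4, 27.6 and 34.8% in libraries 3, 4, 5 and 6. These are shares of counts, not corrected for gene length, and serve to compare libraries.

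**Figure D3:**
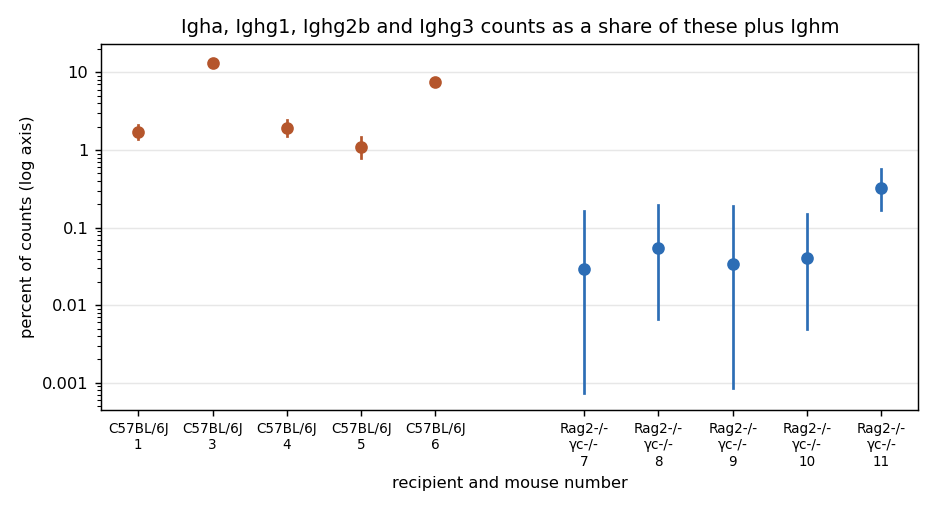
Counts of Igha, Ighg1, Ighg2b and Ighg3 as a percentage of these plus Ighm (log axis) in each library, with exact 95% binomial intervals for counting error; C57BL/6J recipients are on the left. C57BL/6J libraries lie between 1.10 and 13.1%, and Rag2-/-γc-/- libraries between 0.0293 and 0.327%.

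Igkc (chromosome 6, 70726435 to 70726757, plus strand), the single constant gene of the kappa light chain, was the member with the most counts among those at 0 in every Rag2-/-γc-/- library. It had 24.8, 11.2, 1.22, 1.37 and 9.41 CPM in C57BL/6J libraries, from 812, 452, 48, 63 and 374 counts, and no count in any Rag2-/-γc-/- library. All C57BL/6J libraries were above the floor, with libraries 4 and 5 well below the other 3. Against 3 counts over the Rag2-/-γc-/- group it was at least 585-fold higher in C57BL/6J (edgeR adjusted p = 0.0102), a call lost without Rag2-/-γc-/- libraries 7, 8 and 9 (adjusted p = 0.109). Beside 2905 to 4855 Ighm counts in each Rag2-/-γc-/- library, 0 Igkc counts allow Igkc a share of up to 0.0618 to 0.103% of the pair. In C57BL/6J libraries 1, 3, 4, 5 and 6 that share was 12.9, 11.4, 1.41, 1.64 and 7.51%. The kappa locus summed to a mean of 9.93 ± 9.82 CPM in C57BL/6J recipients (SD, n = 5), and library 1 carried much of it, since the mean difference between groups was 6.11 CPM without that library. The lambda locus has no member here.

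Few variable segments are members, and those of immunoglobulin were found in C57BL/6J libraries alone. The leading one was listed as Igkv19-93 and is named Igkv11-106 in M21, which classes it as a kappa V pseudogene (chromosome 6, 68736297 to 68736764, minus strand). It had 14, 33, 0, 5 and 14 counts in C57BL/6J libraries and none in Rag2-/-γc-/- libraries, or at least 22.1-fold more. The heavy chain segment Ighv14-3 had 9 counts and Ighv6-7 had 2, all in C57BL/6J libraries 1 and 6. Among the J segments shown above, Ighj3 had 1 count, in C57BL/6J library 6.

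T cell receptor constant genes were read in C57BL/6J libraries at lower levels, again with next to nothing in Rag2-/-γc-/- libraries. Trac (chromosome 14, 54220521 to 54223097, plus strand), the alpha chain constant gene, had 2.35, 1.01, 0.431, 0.0870 and 0.226 CPM in C57BL/6J libraries and 0 in Rag2-/-γc-/- libraries, at least 49.5-fold higher. Trbc2 (chromosome 6, 41546730 to 41548181), 1 of the 2 beta chain constant genes, had 5.34, 1.74, 0.784, 0.174 and 0.948 CPM in C57BL/6J libraries and 0 in Rag2-/-γc-/- libraries, at least 108-fold higher. Trbc1 (chromosome 6, 41538218 to 41539347) had 2.42, 0.556, 0.0535, 0 and 0.662 CPM in C57BL/6J libraries, so library 5 overlapped with the Rag2-/-γc-/- libraries, which were all at 0. Library 1 was the highest C57BL/6J library and library 5 the lowest in all 3 genes. TRB members summed to a mean of 2.53 ± 3.03 CPM in C57BL/6J recipients (SD, n = 5), and without library 1 the difference between groups was 1.23 CPM. For TRA it was 1.24 CPM with all libraries and 0.568 CPM without library 1.

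The 2 beta chain constant genes differ at 23 of 518 coding bases (95.6% identity) and share an identical run of 259 bases, so many reads cannot be assigned to one of them. The stretch with the most differences within 90 bases is shown, coding bases 400 to 489 of each (GRCm38, plus strand, chr6:41539235-41539324 for Trbc1 and chr6:41547778-41547867 for Trbc2), with capitals at the 14 bases that differ.
Trbc1: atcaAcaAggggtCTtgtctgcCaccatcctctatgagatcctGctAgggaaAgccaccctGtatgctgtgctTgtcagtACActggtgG
Trbc2: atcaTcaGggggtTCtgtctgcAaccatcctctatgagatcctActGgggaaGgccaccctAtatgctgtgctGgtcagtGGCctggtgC
Trbc2 took 68.9% (exact 95% interval 62.8 to 74.5) of the counts of the pair in C57BL/6J library 1, 75.3% (65.2 to 83.6) in library 3, 93.9% (79.8 to 99.3) in library 4 and 59.4% (46.4 to 71.5) in library 6. Library 5 had 8 counts, all given to Trbc2. Trac took 23.3, 30.6, 34.0 and 12.3% of the counts of Trac and both beta genes in libraries 1, 3, 4 and 6.

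The gamma chain constant gene Tcrg-C2 (chromosome 13, 19305060 to 19307551, minus strand) had 8, 3, 0, 0 and 2 counts in C57BL/6J libraries 1, 3, 4, 5 and 6, and 2 counts in Rag2-/-γc-/- library 9. The groups overlapped, and the ratio was 6.52 with an exact 95% interval of 1.48 to 59.5. Tcrg-C1 had 2 counts and Tcrg-C4 had 4, all in C57BL/6J libraries, and the 5 delta chain members had none in any library. Ptcra, the invariant partner of the beta chain in immature T cells, had 1 count, in Rag2-/-γc-/- library 11, and was the only member read in that group alone.

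Alpha chain V segments were the most numerous members with a count, at 28 of 43, and were thinly covered. They summed to 1.62, 0.185, 0.0761, 0.0435 and 0.314 CPM in C57BL/6J libraries, against 0.131 CPM in Rag2-/-γc-/- library 10 and 0 in the other 4, so the groups overlapped. Trav14-3 led with 11.35 counts over all libraries, followed by Trav9-1 with 7 and Trav16 with 6.51, and 21 of all 45 members with a count were seen in 1 library alone. The 4 counts of Rag2-/-γc-/- library 10 were all assigned to Trav14-3 (chr14:53763083-53765043), which the table lists under the same name as Trav14d-1, a related segment elsewhere in the locus (chr14:52855614-52856165). M21 coding sequences of the pair match at 96.1% of 361 aligned bases, with an identical run of 112 bases, so counts may be divided between related segments. Trav14-2 and Trav14-3 match at 95.3%, so this pair alone does not settle which segment the counts belong to. The 90 bases with the most differences between Trav14-3 and Trav14d-1 are shown (plus strand, chr14:53763470-53763559 and chr14:52855942-52856031), with capitals at the 7 bases that differ.
Trav14-3: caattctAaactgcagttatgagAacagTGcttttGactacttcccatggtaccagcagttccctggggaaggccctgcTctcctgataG
Trav14d-1: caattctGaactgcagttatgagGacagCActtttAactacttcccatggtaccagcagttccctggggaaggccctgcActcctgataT

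Levels of some lymphocyte genes moved with the receptor segments and others did not, and they are given as measured; their part in these results was not tested. In bulk RNA of a sorted population, fewer cells of a type and less RNA per cell cannot be told apart. Cd79b, a signalling chain of the B cell receptor, had 22.3, 2.42, 0.71, 0.196 and 3.65 CPM in C57BL/6J libraries, against 0.136, 0.0473, 0.0724, 0 and 0.0759 CPM in Rag2-/-γc-/- libraries. Cr2, a complement receptor of mature B cells, had 16.6, 1.46, 0.533, 0.196 and 2.26 CPM in C57BL/6J libraries and 0 in Rag2-/-γc-/- libraries. Library 1 was the highest and library 5 the lowest C57BL/6J library for both, and library 1 was also the highest for Igkc. Of the 12 matched B cell markers, 4 were higher in C57BL/6J without overlap (Cd79b, Cr2 and Ebf1 among them) and 1, Cd22, was lower without overlap, beside 2.98% and 2.99% of all genes with a count. Cr2 was the 1 at 0 in all Rag2-/-γc-/- libraries. The summed level of this list was 284 to 465 CPM in C57BL/6J and 250 to 391 CPM in Rag2-/-γc-/- libraries, most of it Fcrla, which had 268 to 288 CPM in C57BL/6J and 198 to 346 CPM in Rag2-/-γc-/- libraries.

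Among T cell genes, Cd3g, a chain of the CD3 signalling complex, had 3.82, 1.23, 0.507, 0.0870 and 0.730 CPM in C57BL/6J libraries, against 0.0253 CPM in Rag2-/-γc-/- library 11 and 0 in the other 4. Cd8b1, the beta chain of the CD8 coreceptor, had 2.87, 1.04, 0.330, 0.0435 and 0.428 CPM in C57BL/6J libraries and 0 in Rag2-/-γc-/- libraries. The order of C57BL/6J libraries by Cd3g was that of the summed TRB members, from library 1 down through 3, 6 and 4 to library 5. Of the 18 T cell markers, 8 were higher in C57BL/6J without overlap and 0 lower, beside 2.98% and 2.99% of all genes with a count, and Cd2, Cd28 and Cd8b1 were at 0 in all Rag2-/-γc-/- libraries. Others overlapped: Cd4, a coreceptor, had 0.718 to 4.52 CPM in C57BL/6J and 1.19 to 2.32 CPM in Rag2-/-γc-/- libraries (edgeR adjusted p = 0.705). Cd5, a surface protein of T cells, had 0.718 to 2.90 CPM in C57BL/6J and 1.92 to 4.64 CPM in Rag2-/-γc-/- libraries (edgeR adjusted p = 0.138). This list summed to 68.5 to 136 CPM in C57BL/6J and 22.4 to 48.1 CPM in Rag2-/-γc-/- libraries. Cd8a made up most of it, at 48.6 to 107 CPM in C57BL/6J and 14.9 to 41.2 CPM in Rag2-/-γc-/- libraries, and was over 10 CPM in all 10 libraries. The 7 matched plasma cell markers summed to 165 to 217 CPM in C57BL/6J and 202 to 225 CPM in Rag2-/-γc-/- libraries. Xbp1, a factor of secretory cells, made up 156 to 208 CPM of this in C57BL/6J and 199 to 221 CPM in Rag2-/-γc-/- libraries.

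**Figure D4:**
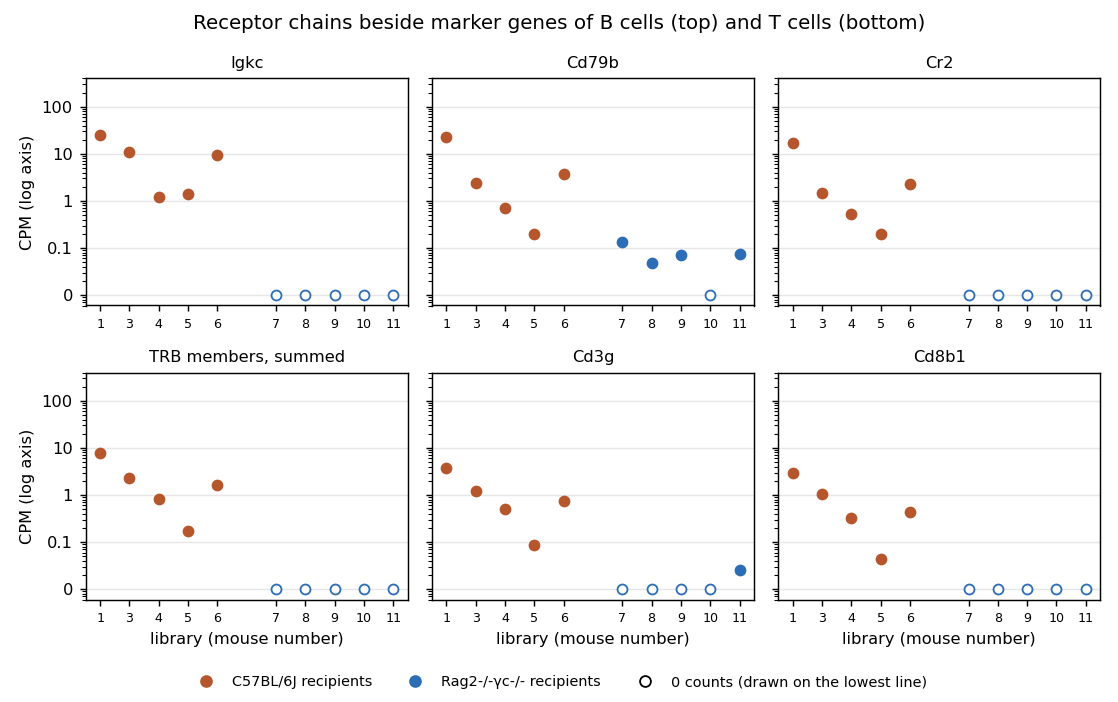
CPM (log axis) of Igkc beside the B cell genes Cd79b and Cr2 (top) and of the summed TRB members beside the T cell genes Cd3g and Cd8b1 (bottom), 1 point per library, C57BL/6J recipients on the left of each panel; open circles on the lowest line are libraries with no count. In all 6 panels library 1 is the highest C57BL/6J library, and no Rag2-/-γc-/- library exceeds 0.136 CPM. The marker genes drawn are a selection, and Cr2 and Cd8b1 were picked after their values were seen. Under 1 CPM in all Rag2-/-γc-/- libraries were 9 of 12 matched B cell markers and 14 of 18 T cell markers. Others were not, such as Cd22 at 37.7 to 49.5 CPM and Cd8a at 14.9 to 41.2 CPM in those libraries.

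Other genes of the receptor pathways are given list by list, beside the 3.32% of all tested genes called higher and the 4.47% called lower. To be tested a gene had to reach 0.253 CPM in 5 libraries. Some called genes of these lists and of the marker lists missed this in Rag2-/-γc-/- libraries. Bcl11a reached it in 4 of those libraries, Cd79a in 3, Kit in 2, and Nkg7 and Zap70 in 0. Each of these reached it in 5 C57BL/6J libraries, so they were tested through their C57BL/6J levels. Runx2 reached it in 4 C57BL/6J libraries and 1 Rag2-/-γc-/- library, so mainly through its C57BL/6J levels. Counts and medians over the tested genes of a list are therefore descriptions and no support. Of 12 tested genes for V(D)J recombination and end joining, 0 rose and 0 fell by the edgeR test (list median log2 fold change 0.14, against 0.00 for all tested genes), and Rag2 had the smallest p. Rag1, the partner of Rag2 in the recombinase, was at 0 to 0.123 CPM in C57BL/6J and 0 to 0.0710 CPM in Rag2-/-γc-/- libraries. Dntt, which adds bases at the joints, was read in C57BL/6J library 6 alone, at 0.0252 CPM. Of 7 tested class switching genes 0 were called (median 0.21). Of the 3 tested genes of the pre-B cell receptor and early B cell list 0 were called (median 0.10). Pax5, the factor that fixes B cell identity, had 6.38, 0.666, 0.482, 0.152 and 1.26 CPM in C57BL/6J libraries, against 0.118 to 0.326 CPM in Rag2-/-γc-/- libraries (edgeR adjusted p = 0.0535). Igll1, which encodes part of the surrogate light chain, was at 0 in all 10 libraries, and Vpreb1, its partner, was at 0 to 0.0755 CPM in C57BL/6J and 0 to 0.0759 CPM in Rag2-/-γc-/- libraries.

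In the B cell receptor list, 1 of 13 tested genes rose and 1 fell (median -0.06). Cd79a, a signalling chain of the receptor, had 38.3, 3.70, 0.964, 0.500 and 5.01 CPM in C57BL/6J libraries, against 0.814, 0.331, 0.398, 0.131 and 0.228 CPM in Rag2-/-γc-/- libraries. C57BL/6J library 5 lay below Rag2-/-γc-/- library 7, and the log2 fold change of Cd79a was 4.59 ± 1.14 (SE) at an adjusted p of 0.0320 in edgeR, or 2.68 with C57BL/6J library 1 left out. Its call was lost without C57BL/6J library 6 and without any 1 of Rag2-/-γc-/- libraries 7, 8, 9 and 11. Cd22, an inhibitory receptor, moved the other way, with 6.89 to 10.6 CPM in C57BL/6J libraries 3 to 6 and 30 CPM in library 1, against 37.7 to 49.5 CPM in Rag2-/-γc-/- libraries and without overlap (-1.75 ± 0.36, adjusted p = 0.0143). In the T cell receptor list, 2 of 6 tested genes rose and 0 fell (median 1.70): Cd8a by 1.30 ± 0.27 (edgeR adjusted p = 0.0161) and the receptor kinase gene Zap70, which had 0.326 to 3.60 CPM in C57BL/6J libraries and 0 to 0.0339 CPM in Rag2-/-γc-/- libraries (adjusted p = 0.00443).

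In the plasma cell and secretion list, 1 of 9 tested genes rose and 1 fell (median 0.56). Mzb1, a chaperone of antibody assembly, had 1.83 to 4.12 CPM in C57BL/6J and 0.639 to 1.07 CPM in Rag2-/-γc-/- libraries (1.86 ± 0.26, edgeR adjusted p = 0.00146). Jchain, which links IgA and IgM units, had 1.24 to 3.68 CPM in C57BL/6J and 0.865 to 1.95 CPM in Rag2-/-γc-/- libraries (edgeR adjusted p = 0.197). Among 15 tested octamer and enhancer factors, which act on receptor gene promoters and enhancers, 1 rose and 4 fell (median -0.12). Bcl11a, needed for early lymphoid development, rose by 3.43 ± 0.35 (edgeR adjusted p = 0.000249). Tcf4, Tcf12, Pou2f2 and Irf4 fell, with Irf4, a factor of plasma cells and of myeloid cells, at 4.35 to 8.77 CPM in C57BL/6J and 12.8 to 20.1 CPM in Rag2-/-γc-/- libraries (-1.22 ± 0.20, adjusted p = 0.00371). Pou2af1, the B cell coactivator of octamer factors, had 16.9, 3.18, 0.228, 0.218 and 2.69 CPM in C57BL/6J libraries and 0 in Rag2-/-γc-/- libraries, and was not tested. The NK and innate lymphocyte list had 7 of 12 markers higher in C57BL/6J without overlap and 0 lower. Among all genes with a count these shares were 2.98% and 2.99%. At 0 in all Rag2-/-γc-/- libraries were 6 of the 12, with 1 of them at 0 in all 10 libraries. By the edgeR test, 2 of the 4 tested markers rose (list median 0.52): Nkg7, at 0 in every Rag2-/-γc-/- library, and Klrk1. Id2 and Klrb1c had log2 fold changes of -0.44 and -1.37 (edgeR adjusted p = 0.108 and 0.115). Of 5 tested plasmacytoid dendritic cell markers Tcf4 fell and Runx2 rose (list median -0.23), Runx2 with an adjusted p of 0.0497 that was 0.0503 under RLE scaling.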

How the data were processed

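Poly(A)-selected RNA of GFP+ splenocytes was sequenced as single reads of 75 bases from NEBNext Ultra libraries, per the labels' protocols. The deposited table, made by the authors, holds an expected count for each Ensembl gene and library, with biotypes and positions; cutadapt 1.11, STAR 2.5.2a, RSEM 1.2.30, edgeR and GRCm38 are named per the submitters' processing notes, and the strand setting and annotation are not stated there. Expected counts divide reads that fit several genes, so values of near-identical segments depend on that division.

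Segments were selected by the biotype in the table and named by identifier in GENCODE M21 on GRCm38, where 169 of 173 were found and 32 had another symbol than in the table. Expected counts were rounded to whole numbers for the tests, and 15.3 to 17.3% of a library's values were not whole (any remainder above 0). All genes were tested together in edgeR 4.0.16 under R 4.3.3 (quasi-likelihood F test) with TMM scaling, filterByExpr (minimum count 10, minimum total 15) and Benjamini-Hochberg adjustment with a threshold of 0.05, after a check on simulated counts. A positive log2 fold change means a higher level in C57BL/6J recipients. A gene with no count in a group is compared with a floor of 3 counts over that group, and with 1 to 3 counts its ratio has an exact 95% binomial interval (scipy 1.17.1); reads carry no molecular identifiers, so floors and intervals cover counting error only. Sums over a locus, shares and marker lists have no test. Libraries were grouped by their labels, each column carrying a library's title; the 20 pairs of libraries within a group all differed beyond sampling noise (chi-square 8.13 to 188 times its degrees of freedom). The alternatives were RLE scaling, column totals, DESeq2 1.42.0, other count filters, leaving out libraries and a wider set of segments.

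The members, the 13 gene lists and the named genes were chosen with earlier results of these data known. The text names every constant gene with at least 10 counts, the 3 segments with the most counts in each V, D or J group, each member past the threshold, up to 4 genes past the threshold per list (where there were none, the 1 with the smallest p) and fixed genes such as Rag1, Rag2, Dntt, Cd79a and Pax5. Tcrg-C1, Tcrg-C4, Ighv6-7 and Ighj3, with fewer counts, were named after their values were seen. So were Cr2, Cd8b1, Fcrla, Pou2af1, Xbp1, Cd4, Cd5, Id2 and Klrb1c. Ptprc, Itgam, Mpo, Cd2, Cd28 and Pou2f2 were also named outside this rule. A few genes that this rule selects are not reported here.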

Additional observations from a re-analysis of the deposited data

Results flagged for a closer look

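Among 17 sets of 5 library values checked, 7 had a library far from the other 4 of its group. The rule flags about 1 set in 20 when values are normally distributed. Low CPM values are not, so the rate to be expected here is not known and the 7 are a description. In the C57BL/6J group library 1 stood apart for Trbc1 (2.42 CPM, against 0 to 0.662 CPM in the others), for the summed alpha chain V segments (1.62 CPM, against 0.0435 to 0.314), for the summed TRB members (7.76 CPM, against 0.174 to 2.30) and for all T cell receptor members together (12 CPM, against 0.348 to 3.59). These 4 sets share counts and are not independent. C57BL/6J library 6 stood apart for Ighg3 (1.79 CPM, against 0.0435 to 0.370). In the Rag2-/-γc-/- group library 11 stood apart for Ighg2b (0.278 CPM, against 0 to 0.0653 in the others) and for the summed immunoglobulin members without Ighm (0.304 CPM, against 0.0170 to 0.0653), the second of which is mostly Ighg2b.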

How the results depend on the processing

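No paired analysis was possible because the mouse numbers of the groups differ and the labels give no batch. With all libraries edgeR called 464 genes higher and 624 lower, DESeq2 803 and 1155, edgeR without Rag2-/-γc-/- libraries 10 and 11 2786 and 2518, and without libraries 7, 8 and 9 148 and 127. Leaving out 1 library gave 275 to 1076 higher and 304 to 1323 lower. Of the segments, 3 were called higher, 2 to 4 with 1 library left out, 9 with no filter on low counts (45 tested), 1 with at least 1 CPM in 5 libraries (2 tested), 9 without libraries 10 and 11 (10 tested) and 0 without libraries 7, 8 and 9 (10 tested); the cause of the last 2 was not tested, and 0 were called lower under any of these.

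The mean difference of the summed IGH members was 12.6 CPM, -1.60 to 27.2 CPM with 1 library left out and -12.4 CPM without libraries 7, 8 and 9, as Ighm makes up most of it. Without Ighm it was 5.57 CPM (3.73 to 6.73 with 1 library left out). With 1 library left out it was 6.11 to 12.1 CPM for IGK (9.93), 0.568 to 1.52 for TRA (1.24), 1.23 to 3.11 for TRB (2.53) and 0.0400 to 0.116 for TRG (0.0901), and it stayed at 0 for TRD, which reached 0.0122 CPM with IG_LV genes added. RLE scaling, column totals, rounding and added genes kept the direction of the other sums. Of 417 comparisons of 25 named genes with an alternative, 366 kept direction and side of the threshold, 40 lost the call (15 of them without libraries 7, 8 and 9, where 9 of 25 genes kept direction and side), 8 gained it and 3 changed sign, all 3 of Ighm (-0.12 to 0.33 with 1 library left out, the lowest being -0.12 without C57BL/6J library 1, -0.05 without Rag2-/-γc-/- library 7, -0.22 without libraries 7, 8 and 9). Cd79a, Cd247, Igha, Ighg2b, Nkg7, Pax5, Runx2 and Zap70 could not be tested with 1 CPM in 5 libraries. A count of 3 stands for 0.0509 to 0.109 CPM, depending on the library, which limits what levels in that range show.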

Other observations

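The 304 IG_LV rows, which hold most V segments in this table and are not among the members, showed the same division between groups. Of these, 226 had a count, and they summed to 33.8, 19.1, 2.64, 1.70 and 15.2 CPM in C57BL/6J libraries 1, 3, 4, 5 and 6, against 0.339, 0.379, 0.470, 0.196 and 0.177 CPM in Rag2-/-γc-/- libraries 7 to 11. With the members' own V segments, 75, 47, 22, 18 and 56 of 113 heavy chain V segments had a count in the C57BL/6J libraries, against 3, 3, 5, 1 and 2 in the Rag2-/-γc-/- libraries. No V segment dominated C57BL/6J libraries 1 and 6: the leading one, Ighv1-26, took 6.28% (exact 95% interval 4.09 to 9.43) and 6.85% (3.92 to 11.1) of heavy chain V counts. In C57BL/6J library 3, Ighv1-66 took 20.8% (16.6 to 25.5), with 71 counts, and had no count in any of the other 9 libraries. In the same library the kappa segment Igkv14-111 took 14.3% (10.9 to 18.2) of 385 kappa V counts. The leading kappa shares were larger in C57BL/6J library 4 (Igkv1-117, 21.2%, 10.3 to 36.8, of 42 counts) and library 5 (Igkv3-7, 25.6%, 13.5 to 41.2, of 43 counts), with wide intervals. In library 3 Trbv14 took 37.5% (22.7 to 54.2) of 40 beta chain V counts. Library 3 also had the highest Igha, at 7.08 CPM, and the highest switched share. The effective number of heavy chain V segments (inverse Simpson number) was 37.5, 12.9, 15.3, 13.3 and 32.5 in libraries 1, 3, 4, 5 and 6, from 360.00, 340.99, 41, 30 and 217 counts, so the low values of libraries 4 and 5 rest on few counts while that of library 3 does not.

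Some V segments ran against the others, and Ighv1-58 had the most counts of these. Ighv1-62-3 had 1.5 counts in Rag2-/-γc-/- libraries and none in C57BL/6J libraries. The 1 alpha chain IG_LV row read in Rag2-/-γc-/- libraries also had no count in C57BL/6J libraries. Ighv1-58 had 5, 0, 0, 0 and 2 counts in C57BL/6J libraries 1, 3, 4, 5 and 6, against 16, 9, 9, 4 and 5 in Rag2-/-γc-/- libraries 7 to 11, or 0 to 0.153 CPM against 0.126 to 0.326 CPM, an overlap through C57BL/6J library 1. It was not tested, and it held 43 of the 53 heavy chain IG_LV counts of the Rag2-/-γc-/- group. Ighv1-58 and Ighv1-62-3 were picked after their values were seen.

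Constant genes that the table files as protein-coding, and so outside the members, were read as follows. Ighg2c was the one switched gene read in every library, at 2.75, 12.4, 1.29, 2.24 and 6.47 CPM in C57BL/6J libraries, against 0.203, 0.615, 0.865, 1.44 and 2.07 CPM in Rag2-/-γc-/- libraries. The groups overlapped, and the log2 fold change was 2.29 ± 0.69 (SE; edgeR adjusted p = 0.0668). Ighe, the epsilon constant gene of IgE, had 2 counts in C57BL/6J and 3 in Rag2-/-γc-/- libraries. Iglc2, a lambda light chain constant gene, had 185, 34, 10, 1 and 53 counts in C57BL/6J libraries and none in Rag2-/-γc-/- libraries, and Igkc took 81.4, 93.0, 82.8, 98.4 and 87.6% of the counts of Igkc plus Iglc2 in C57BL/6J libraries 1, 3, 4, 5 and 6.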
